A study of Mus musculus with 54 samples.

Results

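Motor neurons of the oculomotor and trochlear nuclei (CN3/4) were compared between mSOD mice and wild-type littermates at postnatal day 56 (P56), 3 libraries against 3. The 6 libraries were taken by their labels, as every library of CN3/4 at P56, out of 54 in the series. The neurons had been cut from tissue by laser capture and turned into Smart-seq2 libraries, which read full-length polyadenylated RNA without molecular identifiers. The mSOD mice carried a human SOD1 transgene with the G93A change, a mutation that causes amyotrophic lateral sclerosis (ALS), and the wild-type (wt) littermates did not. The transgene is known to be driven by the human SOD1 promoter and is therefore active in all tissues, not in motor neurons alone. The series describes P56 as a stage before symptoms and P112 as a symptomatic stage, and calls the replicates biological. How many animals or cells stand behind a library, and their sex, is not given in the sources used here. P-values therefore measure a spread between libraries. The main fit estimated that spread from all 54 libraries of the series, not from the 6 libraries of CN3/4 at P56 alone. Motor neurons of lumbar spinal cord (SC), of the hypoglossal nucleus (CN12) and of the vagus nerve's nucleus (CN10) at P56, and CN3/4 at P112, both genotypes each, served for comparison.

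CN3/4 motor neurons move the eyes and the upper eyelid. They are known to outlast spinal and hypoglossal motor neurons in ALS patients and in mutant SOD1 mice, although all of these cells carry the mutant protein. In vulnerable motor neurons, misfolded SOD1 is known to be followed by an unfolded protein response, by expression of nerve injury genes such as Atf3, and by loss of contact with muscle. The Edinger-Westphal nucleus lies directly beside the oculomotor nucleus, and its centrally projecting neurons make the peptides urocortin 1 (Ucn), CART (Cartpt) and cholecystokinin (Cck).

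The 6 libraries held 4658780 to 6188785 counts and 21353 to 23645 genes with a count. The human SOD1 entry took 4.8%, 5.04% and 4.19% of all counts in mSOD replicates 1 to 3, against 0.000752% to 0.00106% in wt. It checks the labels and entered no test. The widest Wilson 95% interval in mSOD was 4.78% to 4.82%, and over the wt libraries the intervals ran from 0.000543% to 0.00139%, for counting error only. Mouse Sod1, the endogenous gene, stood at 790, 543 and 443 CPM (counts scaled to library size) in wt and at 485, 588 and 345 in mSOD, where the libraries overlapped (log2 change -0.32, SE 0.24). The pairwise correlation of log2 CPM was 0.927 to 0.956 among wt libraries, 0.938 to 0.943 among mSOD libraries and 0.914 to 0.959 between genotypes, so pairs across genotype were as alike as pairs within it. The share of mitochondrially encoded counts was lowest in wt replicate 1 (5.48%) and mSOD replicate 2 (8.24%) and was 10.2% to 12.9% in the other libraries. On the leading principal component (30.1% of the variance), wt replicate 1 and mSOD replicate 2 lay at 38.9 and 17.4, and mSOD replicates 1 and 3 at -31.8 and -31.1.

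The captured cells carried markers of cholinergic motor neurons, although 1 of the 13 genes listed for these cells had no count in any library. Chat, the acetylcholine-synthesizing enzyme, ranged from 101 to 151 CPM, and Prph, a motor neuron intermediate filament, from 163 to 308. Isl1, a motor neuron transcription factor, ranged from 63.7 to 105 CPM. Tbx20, a transcription factor of cranial motor neurons, stood at 0.557 to 9.47 CPM. Phox2a, which specifies these neurons in the embryo, had no count in any of the 6 libraries. En1, a gene of the midbrain and anterior hindbrain, stood at 17.4 to 32.3 CPM. Of the 10 genes of hindbrain and spinal position, 6 had no count in any library, and summed over the list the level was at most 1.4 CPM.

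Many genes set these neurons apart from those of other nuclei. Against CN12 at P56, with both genotypes averaged, 3048 of 18493 tested genes differed (16.5%, adjusted p under 0.05 in edgeR's quasi-likelihood test), 1488 higher (8.05%) and 1560 lower (8.44%) in CN3/4. Against CN10 the number was 7255 (39.2%), 3694 higher (20%) and 3561 lower (19.3%). The CN12 number was 1000 without mSOD replicates 1 and 3 of CN3/4, 1993 without CN3/4 wt replicate 3 and 1997 without CN12 wt replicate 3. The genes higher than in both nuclei numbered 745 (4.03%) and those lower than in both 814 (4.4%). Chrm1, a muscarinic acetylcholine receptor, ranged from 72.2 to 95.6 CPM in CN3/4 and reached at most 0.295 CPM in CN12 and 0.431 CPM in CN10 (adjusted p 8.66e-19 and 1.56e-19). Pcdh9, a protocadherin, ranged from 449 to 873 CPM against 53.8 to 163 in CN12 and 23.4 to 58.7 in CN10. Maf, a transcription factor, ranged from 78.9 to 171 CPM against 7.65 to 19.4 in CN12 and 0.148 to 1.59 in CN10. Each of these genes separated the 6 libraries from those of both other nuclei without overlap. They were named for their small p in these same comparisons, which favours such a separation. Krt25, a keratin, ranged from 20.2 to 62 CPM and did not exceed 0.479 CPM in CN12 or 0.431 CPM in CN10. Btbd3, which steers dendrite orientation in cortical neurons, ranged from 77 to 139 CPM against at most 39.7 in the other nuclei. On the lower side, Hoxb5, a position gene of hindbrain and cord, had at most 0.233 CPM in CN3/4 and 7.87 to 32 CPM in CN12. Meis2, a homeobox cofactor, stood at 0 to 2.39 CPM against 70.5 to 91.2 in CN12. Cdh13, a cadherin, was lower by a log2 difference of -3.49 (SE 0.20) against CN12. Crip2, a LIM protein, and S100a10, a calcium-binding protein, were lower there by -3.95 (SE 0.27) and -2.16 (SE 0.16).

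Between genotypes no gene passed. Of 18493 mouse genes tested, 0 had an adjusted p under 0.05 (0%), and the smallest adjusted p was 0.98. An unadjusted p under 0.05 was reached by 592 genes (3.2%), 287 higher (1.55%) and 305 lower (1.65%) in mSOD, where 925 would be expected if no gene differed. DESeq2 on the same counts called 5 genes. These were Scg2, described below with its values, and Gm28277, Npy, Styk1 and Crym, whose mean in each genotype was at most 0.503 CPM. They were named after their values were seen. Leaving out wt replicate 1 and mSOD replicate 2 left the number at 0, as did leaving out mSOD replicates 1 and 3. The libraries of the genotypes did not overlap for 582 genes that were higher (3.15%) and 670 that were lower (3.62%), and the fitted change was above 0 for 49.6% of all genes.

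The precision of single genes was as follows, before any adjustment for the number of genes tested. Among the 9475 genes with a mean of at least 10 CPM, the middle half-width of the 95% interval was 0.623 on the log2 scale, and 94.4% had a half-width under 1. From the 5th to the 95th percentile, the fitted changes of these genes ran from -0.479 to 0.492. Passing the adjusted threshold takes more than an interval that leaves out 0: Scg2, at 1.60 (SE 0.36), had an adjusted p of 0.98.

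**Figure D1:**
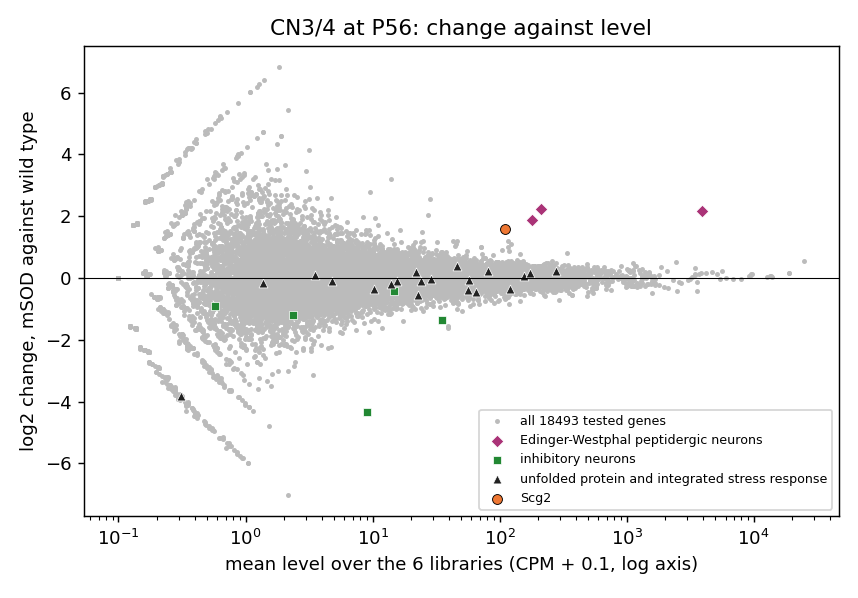
Fitted log2 change (mSOD against wt, vertical axis) against the mean CPM of the 6 CN3/4 libraries at P56 plus an offset of 0.1 (horizontal log axis), 1 point per tested gene. Grey points are all 18493 tested genes, diamonds the Edinger-Westphal genes, squares the inhibitory neuron genes, triangles the unfolded protein and integrated stress response genes, and the circle Scg2. Ucn, Cartpt, Cck and Scg2 lie above the cloud of genes of their level, at log2 changes of 2.23, 2.16, 1.87 and 1.60, and no gene passed the test.

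The peptide genes of the Edinger-Westphal nucleus were higher in every mSOD library, and by very different amounts. Cartpt stood at 1157, 1514 and 1668 CPM in wt and at 9459, 2562 and 7307 CPM in mSOD (log2 change 2.16, SE 0.98, unadjusted p 0.0336). Ucn stood at 67.7, 67.3 and 89.7 CPM in wt and at 504, 99.9 and 451 CPM in mSOD (2.23, SE 0.79, unadjusted p 0.00768). Cck stood at 69.6, 70.1 and 90.3 CPM in wt and at 329, 116 and 397 CPM in mSOD (1.87, SE 0.49, unadjusted p 0.000434). For all 3 genes each mSOD library lay above each wt library, as for 3.15% of all tested genes. In each of the 3, mSOD replicates 1 and 3 lay several-fold above the wt range and mSOD replicate 2 just above it. The adjusted p of each was 1 in edgeR's test. The filter on low counts keeps these genes, but without it 40285 rather than 18493 genes entered the shared estimate of the spread. The fitted changes were then the same to 2 decimals, and the SEs were 0.22 for Cartpt, 0.28 for Ucn and 0.26 for Cck. The adjusted p values in edgeR's test were 2.63e-17, 2.05e-11 and 1.06e-08, so whether these genes pass depends on that filter. These SEs are small beside the spread of the mSOD libraries given above. Without mSOD replicates 1 and 3 the log2 changes were 0.83 for Cartpt, 0.42 for Ucn and 0.60 for Cck.

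The same 3 genes mark neurons that neighbour the captured nucleus, so their summed level is given for the other groups. It was 1295 to 1848 CPM in wt and 2778 to 10292 CPM in mSOD at P56. At P112 it was 2209 to 5839 CPM in wt and 7467 to 22260 CPM in mSOD, again without overlap. In CN10, CN12 and SC at both ages it did not exceed 780 CPM. In captured tissue, more cells of a type and more RNA per cell cannot be told apart, and the share of Edinger-Westphal cells in these libraries was not tested.

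Scg2, which encodes secretogranin II of dense-core vesicles, had the smallest unadjusted p of the 18493 genes. It stood at 39.2, 69.5 and 54.7 CPM in wt and at 255, 55.2 and 185 CPM in mSOD (log2 change 1.60, SE 0.36, 95% interval 0.87 to 2.33, unadjusted p 5.76e-05, adjusted p 0.98). Here too mSOD replicates 1 and 3 were high, while mSOD replicate 2 lay within the wt range. Its adjusted p was 0.022 with DESeq2, 5.31e-07 without the filter on low counts and 0.00424 without mSOD replicate 2, and without mSOD replicates 1 and 3 its log2 change was 0.03. The highest Scg2 levels were therefore in the libraries with the highest Edinger-Westphal level, and the part of that level in the result was not tested.

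Neither Scg2 nor Cck passed at P56, and their fitted changes were also above 0 at P112, in other mice sequenced in another project. Scg2 stood at 53.3, 41.8 and 142 CPM in wt and at 200, 141 and 357 CPM in mSOD at P112 (log2 change 1.56, SE 0.36, unadjusted p 7.84e-05). Cck stood at 212, 150 and 228 CPM in wt and at 366, 314 and 1146 CPM in mSOD at P112 (1.63, SE 0.48, unadjusted p 0.00161). The mSOD libraries lay above the wt libraries for Cck and overlapped them narrowly for Scg2. A comparison of the mean genotype effect over P56 and P112, added after these values were seen, called 1 gene of 18493 (0.00541%), and 4.55% reached an unadjusted p under 0.05. The gene called was Scg2, with a log2 change of 1.58 (SE 0.26, adjusted p 0.00256 in edgeR's test). Every leave-one-out fit of CN3/4 libraries kept it under 0.05, but leaving out mSOD replicates 1 and 3 at P56 gave 0.79 (adjusted p 1), and fitting only the CN3/4 groups gave 1.58 (adjusted p 0.618). Cck reached 1.75 (SE 0.34, adjusted p 0.0601) in the same comparison.

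**Figure D2:**
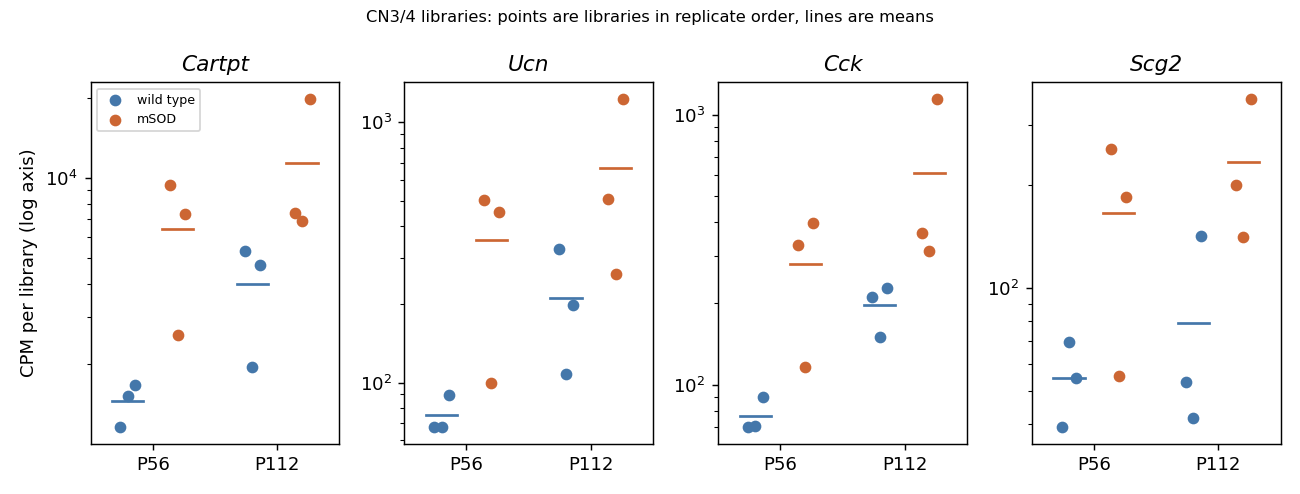
CPM of Cartpt, Ucn, Cck and Scg2 (1 panel each, vertical log axis) in the CN3/4 libraries at P56 and P112. Each point is a library, in replicate order from left to right, blue for wt and orange for mSOD, and horizontal lines are means of 3 libraries. At P56, mSOD replicate 2 lies near the wt libraries in each panel (2562 CPM for Cartpt and 55.2 CPM for Scg2), below mSOD replicates 1 and 3.

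The promoters of 5 peptide genes high in mSOD replicates 1 and 3 are shown, these 4 and Vip, whose values are given with the nerve injury genes. Promoters of other genes high in those libraries were not searched. The 250 bases before the start site come from RefSeq on GRCm38.p6, the first 4 on the minus strand: chr13:99900684-99900933 for Cartpt, chr5:31138896-31139145 for Ucn, chr1:79440027-79440276 for Scg2 chr9:121495695-121495944 for Cck and chr10:5638968-5639217 on the plus strand for Vip. They were searched on both strands for TGACGTCA, the full cyclic AMP response element, and for its part TGACG, which lies inside the full element on each strand. Capitals mark the full element, or in Cck and Vip, which lack it, the part element, read as its reverse complement in Cck.
Cartpt: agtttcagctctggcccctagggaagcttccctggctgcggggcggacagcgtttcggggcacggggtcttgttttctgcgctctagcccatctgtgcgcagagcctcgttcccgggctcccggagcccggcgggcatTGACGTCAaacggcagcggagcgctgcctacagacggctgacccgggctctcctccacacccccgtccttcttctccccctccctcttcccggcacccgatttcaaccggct
Ucn: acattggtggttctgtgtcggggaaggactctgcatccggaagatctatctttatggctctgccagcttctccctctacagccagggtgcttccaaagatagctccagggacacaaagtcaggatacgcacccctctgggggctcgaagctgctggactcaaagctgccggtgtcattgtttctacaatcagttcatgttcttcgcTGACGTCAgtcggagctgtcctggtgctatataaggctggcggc
Scg2: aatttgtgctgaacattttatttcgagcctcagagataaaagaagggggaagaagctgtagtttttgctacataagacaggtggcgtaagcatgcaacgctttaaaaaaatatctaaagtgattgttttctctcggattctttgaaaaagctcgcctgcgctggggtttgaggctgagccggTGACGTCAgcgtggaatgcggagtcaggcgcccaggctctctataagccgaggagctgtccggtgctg
Cck: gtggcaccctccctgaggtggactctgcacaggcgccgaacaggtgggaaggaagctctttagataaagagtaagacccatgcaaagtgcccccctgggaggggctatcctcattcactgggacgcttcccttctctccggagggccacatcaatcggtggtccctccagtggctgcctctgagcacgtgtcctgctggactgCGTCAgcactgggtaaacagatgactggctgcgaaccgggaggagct
Vip: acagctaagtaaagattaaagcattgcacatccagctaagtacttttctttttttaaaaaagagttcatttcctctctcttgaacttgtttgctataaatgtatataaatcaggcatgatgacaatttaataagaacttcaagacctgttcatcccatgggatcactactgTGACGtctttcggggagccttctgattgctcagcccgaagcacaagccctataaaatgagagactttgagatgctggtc
The full element began 44 bases before the start in Ucn, 68 in Scg2 and farther upstream in Cartpt, and the part element 47 bases before it in Cck and 79 in Vip. The full element was found in 508 of 32851 promoter windows of this length (1.55%) and the part element in 5836 (17.8%). The 5 genes were chosen after their values were seen, and a match is a description of the letters only.

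Up to 12 genes per direction are given next, those with the smallest p among named genes whose libraries did not overlap. Several encode membrane proteins of neurons. Scn3b, an auxiliary subunit of voltage-gated sodium channels, stood at 0.583, 0.217 and 0 CPM in wt and at 6.86, 4.09 and 6.75 CPM in mSOD (log2 change 4.14, SE 0.98, unadjusted p 0.000163, adjusted p 0.98). Its mSOD libraries were alike, and its wt libraries stood at 2.12 to 9.14 CPM at P112, where the fitted change was -0.32. Gabrq, the theta subunit of the GABA-A receptor, stood at 0, 4.56 and 3.79 CPM in wt and at 49.9, 5.94 and 18.4 CPM in mSOD (3.22, SE 0.78, unadjusted p 0.000212), highest in the libraries high in Cartpt. Cacna1h, a T-type calcium channel, stood at 5.4, 7.38 and 3.16 CPM in wt and at 1.89, 0.929 and 0.233 CPM in mSOD (-2.36, SE 0.67, unadjusted p 0.000971).

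Pdzd11, a PDZ domain protein, was the best expressed of the lower genes and had the tightest wt values. It stood at 53.4, 54.7 and 53.3 CPM in wt and at 28.9, 41.2 and 24.2 CPM in mSOD (-0.77, SE 0.21, unadjusted p 0.000714), and at P112 its change was -0.21. Ajap1, an adherens junction protein, stood at 5.83, 7.16 and 7.58 CPM in wt and at 11.8, 15.2 and 13.7 CPM in mSOD (0.99, SE 0.30). Socs2, a suppressor of cytokine signalling, stood at 3.79, 1.74 and 1.68 CPM in wt and at 7.57, 10.4 and 5.82 CPM in mSOD (1.68, SE 0.48). Etnk2, an ethanolamine kinase, stood at 5.4, 4.78 and 5.89 CPM in wt and at 8.28, 14.9 and 9.54 CPM in mSOD (1.03, SE 0.33). Their fitted changes at P112 were -0.08 for Ajap1, 0.15 for Socs2 and 0.75 for Etnk2.

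The others were low or near the limit of counting. Zfp37, Zfp873, Dclre1b and Fam107b were higher by fitted log2 changes of 1.72, 1.40, 2.21 and 3.67. Leaving out 1 library moved Zfp37 to 0.98 (without mSOD replicate 1) and Fam107b to 6.89 (without wt replicate 2). Zkscan6 and Crip3 were lower by fitted changes of -1.76 and -2.39, and Crip3 was at -4.08 without mSOD replicate 3. In the remainder 1 genotype had 3 counts or fewer in each library, and the fold is a lower bound against 3 counts in each library. Trac, the constant region of the T cell receptor alpha chain, was at least 3.4-fold higher in mSOD. Nms, the neuropeptide neuromedin S, was at least 4.1-fold higher. Tchh was at least 4.29-fold lower, Katnal2 at least 4.24-fold, Cited1 at least 2.87-fold, Col6a3 at least 2.47-fold and Cfap57 at least 2.31-fold. Lama1, Mavs and Plekho2 were at least 1.71-fold, 1.57-fold and 1.27-fold lower. None of these genes passed the test.

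Gene lists of pathways known from mutant SOD1 were read against the whole table, in which the median change was 0. No member of any of the 31 lists had an adjusted p under 0.05. The unfolded protein and integrated stress response showed 7 of 20 members above 0 and 13 below, with a median of -0.08 and no member at an unadjusted p under 0.05. Atf4, its central transcription factor, stood at 93.6, 59.3 and 74.5 CPM in wt and at 53.7, 61.7 and 50 CPM in mSOD (-0.46, SE 0.26). Ddit3, which encodes CHOP, stood at 39.1, 17.6 and 23.6 CPM in wt and at 9.94, 32.1 and 12.8 CPM in mSOD (-0.54, SE 0.44). Hspa5, which encodes the chaperone BiP, had a change of 0.23 (SE 0.25). The libraries overlapped for all 3 genes.

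Of the 18 nerve injury genes, 9 were above 0 and 8 below, with a median of 0.02 (0.20 with the gene at the limit of counting set to its bound and those uncounted in both genotypes left out). Atf3, the injury transcription factor, stood at 3.65, 1.95 and 2.53 CPM in wt and at 0.71, 1.11 and 3.96 CPM in mSOD. Sprr1a, a growth-associated gene of injured neurons, had no count in any library. Jun stood at 15.3, 30.6 and 34.7 CPM in wt and at 48.5, 31.4 and 47.5 CPM in mSOD (0.66, SE 0.36, unadjusted p 0.0706). The peptides of the list stood apart from it. Vip had no count in wt and stood at 2.84, 0 and 3.96 CPM in mSOD, at least 3.96-fold higher, and Adcyap1, which encodes the peptide PACAP, stood at 0.146, 11.7 and 1.47 CPM in wt and at 26.7, 5.39 and 16.5 CPM in mSOD (1.93, SE 0.89). Both were highest in mSOD replicates 1 and 3.

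Chaperones of the cytosol and mitochondria had 11 of 18 members above 0 and a median of 0.05. Hspa8 and Hspa1a, constitutive and inducible HSP70 chaperones, had changes of -0.12 (SE 0.17) and 0.38 (SE 0.51). Antioxidant genes had 10 of 26 tested members above 0 and a median of -0.13, with Sod2, the mitochondrial superoxide dismutase, at -0.15 (SE 0.16). Slc7a11, the cystine transporter, stood at 76.1, 36.9 and 30.3 CPM in wt and at 24.4, 35.1 and 19.5 CPM in mSOD (-0.86, SE 0.46). Autophagy genes had 10 of 18 above 0 and a median of 0.02, with Sqstm1, the p62 receptor, at 0.21 (SE 0.18).

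Most proteasome and respiratory chain genes had fitted changes below 0, and none passed. Proteasome subunits had 3 of 19 tested members above 0 and a median of -0.21, and nuclear-encoded respiratory chain genes 4 of 20 and a median of -0.23. Uqcrc2, a core subunit of complex III, stood at 226, 179 and 134 CPM in wt and at 104, 134 and 86.8 CPM in mSOD (-0.73, SE 0.26, unadjusted p 0.00771). Ndufa9 of complex I stood at 268, 191 and 143 CPM in wt and at 137, 173 and 129 CPM in mSOD (-0.45, SE 0.21). Psmb4, a proteasome subunit, stood at 318, 221 and 177 CPM in wt and at 182, 210 and 141 CPM in mSOD (-0.43, SE 0.22). In each of the 3 genes wt replicate 1 was highest. Summed over the respiratory chain list, the level was 15240, 13673 and 11261 CPM in wt and 11148, 13917 and 11303 CPM in mSOD, which overlapped. Without mSOD replicates 1 and 3 the list median was 0.05. Mitochondrially encoded genes summed to 45305 CPM in wt replicate 1 and 74622 CPM in mSOD replicate 2, and to 100351 to 119499 CPM in the other 4, with a median change of 0.06 between genotypes.

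Most genes of excitability had fitted changes above 0, and none passed. Voltage-gated channels had 19 of 22 members above 0 with a median of 0.12 and none at an unadjusted p under 0.05, and the median was -0.02 without mSOD replicates 1 and 3. Scn1a and Scn2a, sodium channel alpha subunits, had changes of 0.17 (SE 0.27) and 0.25 (SE 0.24). Ionotropic glutamate receptors had 12 of 15 above 0 and a median of 0.13, with Gria2, the AMPA receptor subunit that limits calcium entry, at 0.25 (SE 0.26). GABA and glycine receptors had 8 of 15 above 0 and a median of 0.02.

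Calcium genes had 8 of 20 above 0 and a median of -0.02. Calb2, the calcium buffer calretinin, stood at 54.5, 30.2 and 31.6 CPM in wt and at 28.4, 24.9 and 8.84 CPM in mSOD (-0.91, SE 0.51). Ncald, neurocalcin delta, stood at 20.7, 16.5 and 23.8 CPM in wt and at 7.1, 8.92 and 14.7 CPM in mSOD (-0.99, SE 0.51). Neither gene's libraries overlapped, and neither passed. They were the only 2 of the 20 calcium genes without overlap, and 3.62% of all tested genes were lower without overlap. Pvalb, parvalbumin, ranged from 323 to 735 CPM over both genotypes.

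Axonal transport, presynaptic and cholinergic genes had medians of 0.09, 0.02 and 0.04. The fitted change was -0.17 (SE 0.20) for Kif5a, an axonal kinesin, 0.17 (SE 0.29) for Snap25, a vesicle fusion protein, and -0.29 (SE 0.23) for Chat. Chat stood at 151, 118 and 122 CPM in wt and at 103, 116 and 101 CPM in mSOD, where every mSOD library lay below every wt library. It was the only 1 of the 13 cholinergic genes without overlap, and of these 8 were above 0 and 4 below. Of all tested genes 3.62% were lower without overlap. Stx1a was the presynaptic gene with the smallest p (1.96, SE 0.97), at no more than 2.04 CPM. Mouse counterparts of familial ALS genes had 17 of 23 tested members above 0 and a median of 0.10, with Tardbp, which encodes the RNA-binding protein TDP-43, at 0.30 (SE 0.25). Trophic factors and receptors had 10 of 16 above 0 and a median of 0.20. Ntrk2, the receptor of BDNF, stood at 109, 134 and 145 CPM in wt and at 159, 137 and 220 CPM in mSOD (0.41, SE 0.20, unadjusted p 0.045), and Bdnf itself at 0.146, 2.17 and 1.26 CPM in wt and at 5.68, 3.71 and 1.86 CPM in mSOD. Igf1r, a growth factor receptor, had a change of -0.14 (SE 0.30), and Igf2 had no count in any library. Immediate early genes had 4 of 11 above 0 and a median of -0.09.

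Mmp9 and Chodl, linked to vulnerable motor neurons, overlapped between the genotypes, and Calb2, from the list linked to spared ones, did not, as given above. Calb2 was the only 1 of the 9 tested genes of its list without overlap, against 0 of the 8 linked to vulnerable neurons. Of all tested genes 3.62% were lower without overlap. Mmp9, a protease of fast spinal motor neurons, stood at 4.38, 4.34 and 2.11 CPM in wt and at 6.39, 1.86 and 7.91 CPM in mSOD. Chodl, a marker of fast motor neurons, ranged from 133 to 247 CPM, with a change of 0.12 (SE 0.43). The median was -0.02 for the 8 genes linked to vulnerable neurons and -0.14 for the 9 tested genes linked to spared ones.

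**Figure D3:**
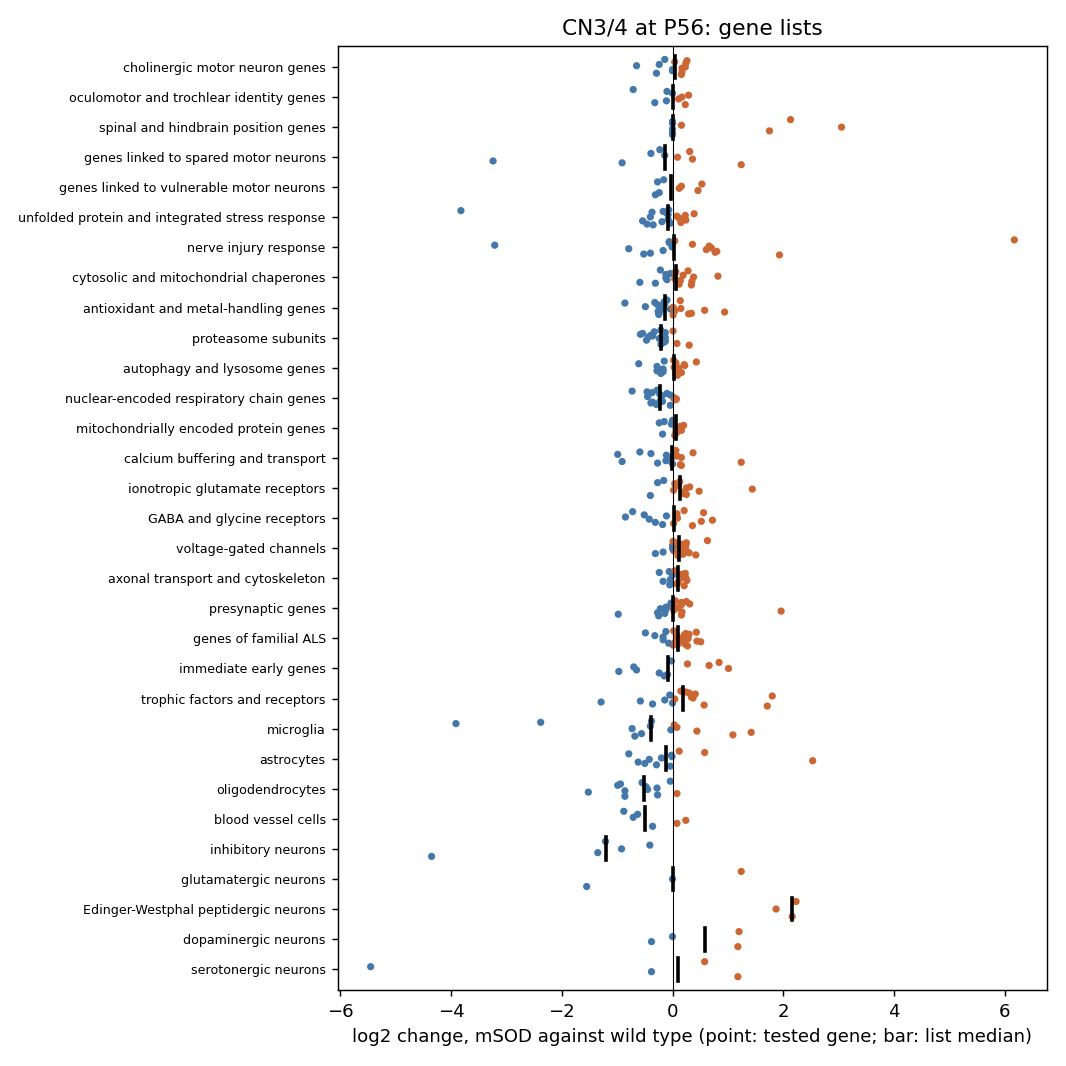
Fitted log2 change, mSOD against wt (horizontal axis), of each tested member of the 31 gene lists (1 row each), orange above 0 and blue below, with the list median as a black bar. Medians lie between -0.23 and 0.20 for the pathway lists, and the Edinger-Westphal list stands at 2.16 and the inhibitory neuron list at -1.21.

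Markers of neighbouring cells differed between libraries of the same genotype. All 5 inhibitory neuron genes had fitted changes below 0, with a median of -1.21. Gad1, an enzyme of GABA synthesis, stood at 2.04, 11.3 and 37.7 CPM in wt and at 1.89, 0.557 and 0 CPM in mSOD (-4.35, SE 1.57, unadjusted p 0.00892). Gad2, the other such enzyme, stood at 22.8, 49.9 and 80 CPM in wt and at 18.9, 21 and 19.8 CPM in mSOD (-1.35, SE 0.59, unadjusted p 0.0259). For both genes wt replicate 1 stood next to the mSOD libraries and wt replicate 3 far above them. The 5 genes summed to 39.8, 85.1 and 141 CPM in wt and 34 to 36 CPM in mSOD. At P112 they summed to 28.1 to 81.3 CPM in wt and 51.4 to 83.3 CPM in mSOD, which overlapped. Slc17a6, the glutamate transporter of many brainstem neurons, followed a like order at P56, with 15.3, 67.1 and 92.2 CPM in wt and 15.9, 25.1 and 18.1 CPM in mSOD. It was the only 1 of the 3 glutamatergic genes with a fitted change below 0 (-1.55). Another was above 0 (1.24), and the list median was 0.

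Glial markers overlapped between the genotypes when summed. Oligodendrocyte genes summed to 257, 372 and 1089 CPM in wt and 565, 383 and 330 CPM in mSOD, with 1 of 12 changes above 0 and a median of -0.51. Astrocyte genes summed to 1071 to 1427 CPM in wt and 949 to 1214 CPM in mSOD. Gfap was at 0 in all libraries but mSOD replicate 3 (0.465 CPM). Microglial genes summed to 10.9 to 15.5 CPM in wt and 9.84 to 14.4 CPM in mSOD, and Csf1r and Cx3cr1, which define these cells, did not exceed 0.632 CPM. The blood vessel genes summed to at most 54.5 CPM. The serotonergic and dopaminergic lists each stayed at or below 34.6 CPM, with Slc6a3 at 0 in all libraries.

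**Figure D4:**
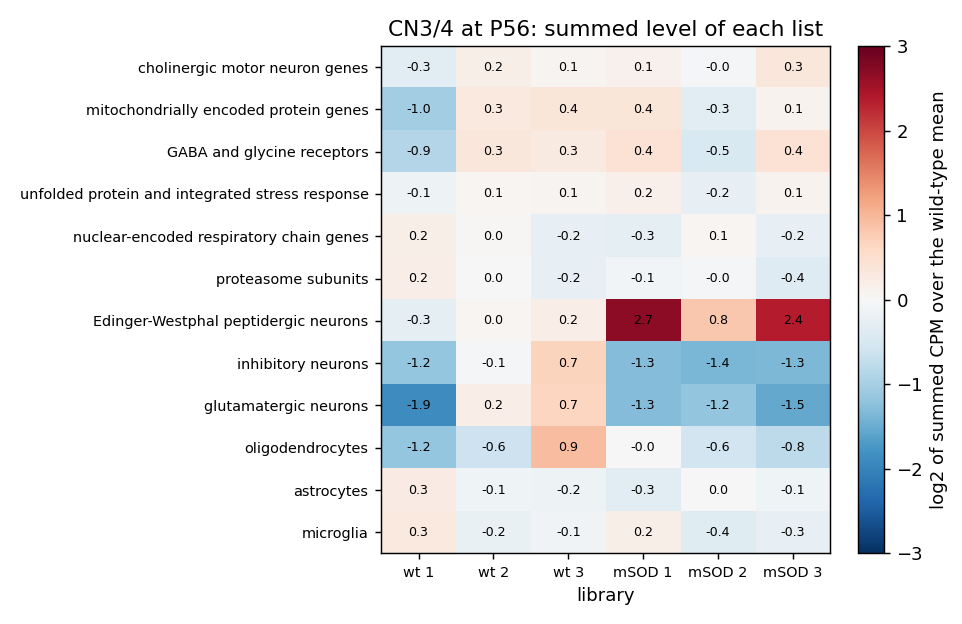
Summed CPM of 12 gene lists (rows) in each of the 6 CN3/4 libraries at P56 (columns), as log2 of the ratio to the wt mean, red above it and blue below. The Edinger-Westphal row reaches 2.7 and 2.4 in mSOD replicates 1 and 3 and 0.8 in mSOD replicate 2, while the mitochondrially encoded row is lowest in wt replicate 1 (-1.0).

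The genes that differed by genotype in the spinal cord were then followed in CN3/4. At P56, 100 genes differed between genotypes in SC (0.541% of those tested), 58 higher (0.314%) and 42 lower (0.227%). In CN3/4 at P56, 0 of the 100 passed. The libraries did not overlap in the same direction for 8 of the 58 higher genes (3.15% of all tested genes) and for 2 of the 42 lower genes (3.62%). An unadjusted p under 0.05 with the same sign was reached by 2 of the 58 (1.55% of all tested genes) and 4 of the 42 (1.65%), and with the opposite sign by 0. Of the 58 higher genes 30 had the same sign (51.7%, against 49.6% of all tested genes above 0), with a median of 1.84 in SC and 0.04 in CN3/4. Of the 42 lower genes 26 had the same sign (61.9% against 49.7%), with medians of -1.1 and -0.16. The difference between the nuclei had an unadjusted p under 0.05 for 78 of the 100 genes (6.18% of all tested genes), all with the smaller change in CN3/4. It had an adjusted p under 0.05 for 1. The genes were chosen by their values in SC, which makes a smaller value elsewhere likely. The difference contains these same SC values, so the choice also favours small p-values and this direction, and the 78 are no separate evidence. All SC P56 mSOD libraries came from another sequencing project (P6362) than the CN3/4 libraries (P11355), so the comparison rests on the project term.

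Hpcal1, a neuronal calcium sensor, was the only gene in the whole table whose genotype effect differed between CN3/4 and SC at P56 after adjustment (1 of 18493, 0.00541%). It stood at 34.1, 23 and 22.3 CPM in wt and at 26.5, 30.3 and 32.1 CPM in mSOD in CN3/4 (0.16, SE 0.23), and its change in SC was -1.47 (SE 0.19). The difference was 1.63 (SE 0.30, adjusted p 0.033 in edgeR's test), and an unadjusted p under 0.05 was reached by 1142 genes (6.18%). Leaving out CN3/4 mSOD replicate 2 or 3, wt replicate 2 or 3, SC wt replicate 3 or 5 or SC mSOD replicate 5 brought its adjusted p to 0.0501 to 0.218, and without the project term it was 0.181. Without CN3/4 mSOD replicates 1 and 3 it was 0.387. The difference itself stayed between 1.42 and 1.86 in these fits and the others run for Hpcal1.

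Of the 8 genes with the smallest p in SC, 4 per direction, the fitted changes in CN3/4 lay between -0.28 (Fxyd7) and 0.46 (Cd24a). Of all 100 genes called in SC, Fgf21, Exoc3l2 and Gm21188, named after their values were seen, had the fitted changes farthest from 0 in CN3/4. They were 3.37, 2.24 and -4.42, with the sign of SC and nearer 0 than the 5.07, 10.6 and -6.94 there. In CN3/4 their mean in each genotype was at most 1.07 CPM and their libraries overlapped. Cd24a, a cell surface glycoprotein, fell by 1.41 on the log2 scale in SC and had a change of 0.46 (95% interval -0.16 to 1.07) in CN3/4. Pitpnc1, a lipid transfer protein, stood at 154, 163 and 160 CPM in wt and at 167, 152 and 162 CPM in mSOD in CN3/4 (0.01, 95% interval -0.40 to 0.43), against -1.02 in SC. Slc38a1, a glutamine transporter, had a change of -0.06 (95% interval -0.49 to 0.38) in CN3/4 and rose by 1.13 in SC. The CN3/4 intervals of these 3 genes did not reach the SC value, and neither did those of the other genes of the 8. These intervals leave out the error of the SC value. In edgeR's test the difference had an adjusted p of 0.142 for Cd24a, 0.263 for Pitpnc1 and 0.201 for Slc38a1. Phgdh, an enzyme of serine synthesis, had a change of 0.10 (95% interval -1.64 to 1.84) in CN3/4, at 0.583 to 2.74 CPM, and of 4.72 in SC. The mitochondrial ribosomal RNA mt-Rnr1 had a change of 0.11 (95% interval -0.54 to 0.76) in CN3/4 and 1.80 in SC. The values in CN3/4 and SC were -0.04 and 1.51 for Crtc3, a CREB coactivator, and -0.28 and -1.41 for Fxyd7, a regulator of the sodium pump.

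**Figure D5:**
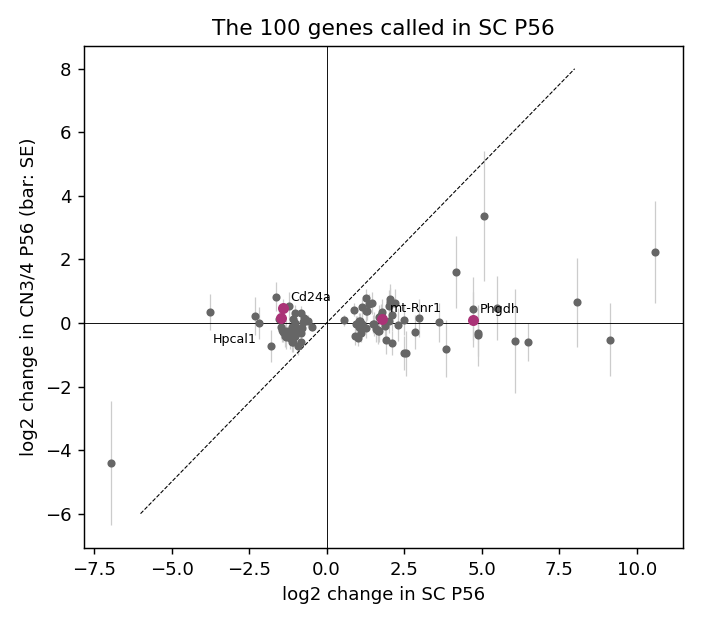
Fitted log2 change in CN3/4 at P56 (vertical axis, bars are SE) against that in SC at P56 (horizontal axis) for the 100 genes called in SC, with equal change as a dashed line. Purple points are the named genes, and the points have a median change on the vertical axis of 0.04 for the 58 genes higher in SC.

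Against the other cranial nuclei, the genotype effect differed for 0 genes at adjusted p under 0.05 in CN12 (0%; 1659 genes, 8.97%, at an unadjusted p under 0.05 in edgeR's test, and 6 called by DESeq2). Against CN10 the number was also 0 (1060 genes, 5.73%, at an unadjusted p under 0.05, and 5 called by DESeq2). These nuclei came from the same project as CN3/4 at P56. Scg2, for which CN3/4 gave 1.60, had fitted changes of -0.18 in CN12 and 0.61 in CN10, and Cck of 0.54 and -0.88.

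Between P56 and P112 the genotype effect in CN3/4 differed for 0 genes (0%; 433 genes, 2.34%, at an unadjusted p under 0.05 in edgeR's test, and 1 called by DESeq2). Of the 592 genes at an unadjusted p under 0.05 at P56, 388 had the same sign at P112 (65.5%), against 56.1% of all tested genes, and no control library was shared. For 40 of them (6.76%, against 1.96% of all genes) the unadjusted p was under 0.05 with the same sign at P112, and for 14 (2.36%, against 1.19%) with the opposite sign. Beside Scg2 and Cck, the genes higher at both ages included Tent5a, a poly(A) polymerase, at 6.13, 1.52 and 2.11 CPM in wt and 15.4, 2.79 and 21.6 CPM in mSOD at P56, again highest in mSOD replicates 1 and 3. Gm12895 and Gm12896 carried identical values, most of them from mSOD replicate 3 (10.2 CPM), and counts between such copies are uncertain. Among the genes lower at both ages, Xaf1, an interferon-inducible gene, stood at 18.8, 1.74 and 16.4 CPM in wt and at 3.55, 5.01 and 4.89 CPM in mSOD at P56 (-1.46, SE 0.61). At P112 it stood at 26.9, 13.2 and 9.8 CPM in wt and at 1.26, 2.91 and 1.54 CPM in mSOD (-3.08, SE 0.68). Xaf1 overlapped at P56 through wt replicate 2 and did not overlap at P112, and over both ages its adjusted p was 0.0601 (-2.27, SE 0.46). Matn2, a matrix protein, stood at 5.4, 4.78 and 2.11 CPM in wt and at 0, 1.3 and 0.233 CPM in mSOD at P56. Gm35725 and Pik3r6, a regulatory subunit of a phosphoinositide kinase, were at least 4.69-fold and 2.46-fold lower at P56, and Pth1r stayed below 1 CPM throughout.

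The genes that varied most within a genotype, among those of at least 10 CPM on average, included 2 receptor subunits and 2 peptides. Glra2, a glycine receptor subunit, stood at 82.3, 0.434 and 119 CPM in wt and at 149, 80.4 and 67.5 CPM in mSOD, so that 1 wt library almost lacked it. Postn, which encodes periostin, stood at 0.438, 6.29 and 18.3 CPM in wt and at 53.5, 10.2 and 82.1 CPM in mSOD (2.55, SE 0.99), highest in mSOD replicates 1 and 3. Sst, the peptide somatostatin, stood at 7.15, 22.6 and 18.9 CPM in wt and at 36.9, 42.3 and 2.56 CPM in mSOD. Cldn11, a myelin gene, reached 43.4 CPM in wt replicate 3 and 4.52 to 21.8 CPM elsewhere. Gabrq and Adcyap1, given above, and Gm13339, Gm12709, Olfm3 and 1190002N15Rik completed the 10. By length-scaled level, an entry without a symbol stood highest, and mitochondrial messages and their copies made up the rest of the 10 highest. Next came mt-Co3, with a median of 89944 RPKM, and its nuclear copy Gm28437, with 89681 RPKM. Reads shared between such near-identical copies leave this level uncertain. The others were mt-Nd1, mt-Co1, mt-Co2, mt-Atp6, mt-Cytb, Gm10925 and Gm29216. The libraries of the genotypes overlapped for all 10.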

How the data were processed

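RNA was measured in 54 laser-captured motor neuron libraries, of which 6 were CN3/4 at P56. The authors aligned reads with STAR 2.7.0e to mm39 (GRCm39), per the submitters' processing notes; the counting program and annotation are not given in the sources used here. Raw whole-number counts, as the authors deposited them, covered 55354 mouse genes plus 1 entry named SOD1, read here as the human transgene. RPKM values, also deposited, served only to compare levels between genes. Symbols matched 52079 genes by identifier, and gene classes came from GENCODE.

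The test was edgeR 4.0.16 under R 4.3.3 (TMM, filterByExpr, robust quasi-likelihood F test, two-sided). All 54 libraries entered 1 fit with 16 group means and a project term, which left 18493 mouse genes (18416 with a symbol, 2520 pseudogenes). P-values were adjusted by Benjamini-Hochberg over these genes, with a threshold of 0.05. CPM used TMM-scaled library sizes. Intervals and floors (3 counts per library) cover counting error or the fitted spread only. Intervals of a change are 95% intervals from the fit.

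DESeq2 1.42.0, RLE size factors, no low-count filter, SOD1 outside library sizes, other sample sets, no project term and leave-one-out fits were alternatives. Figures used Python 3.11.15 and matplotlib 3.10.9; limma was version 3.58.1. The members and gene lists were chosen with earlier results of these data known. The genes named were the 12 per direction with the smallest p and no overlap, the first 2 and the 2 smallest-p genes of each list, genes called in differences or nuclei (5 per direction), 4 per direction from SC, 5 per direction shared with P112, and the 10 with the highest RPKM or spread, with other list members as values. Some list members that the rule would name are not reported here.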

Additional observations from a re-analysis of the deposited data

Results flagged for a closer look

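The genotype effect on Hpcal1, a neuronal calcium sensor, differed between CN3/4 and SC at P56 by a log2 difference of 1.63 (SE 0.30, adjusted p 0.033), and the difference itself was tested in edgeR's model. All 3 mSOD libraries of CN3/4 lay within the wt range of 22.3 to 34.1 CPM, whereas the change in SC was -1.47. All SC mSOD libraries came from another sequencing project. The call was lost without the project term and on leaving out any 1 of several libraries, as given above.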

How the results depend on the processing

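With 3 libraries a genotype, only changes well beyond the spread were detectable, and the median of all genes moved by less than 0.1 (log2) in every fit. No paired analysis was possible because the labels carry no replicate numbers. The number of genes that differed between genotypes in CN3/4 at P56 (0) became 41 without the filter on low counts and 5 with DESeq2, and 0 to 1 when each library was left out in turn (1, Scg2, without mSOD replicate 2). For the mean over both ages (1) it was 77 without the filter, 6 with DESeq2, 2 without the project term, 0 with the compared groups only, 2 without wt replicate 1 and mSOD replicate 2, 0 without mSOD replicates 1 and 3, and 1 to 3 on leaving out each library. The difference from SC (1) gave 68 without the filter, 21 with DESeq2, 0 without the project term, 4 with the compared groups only, 0 without mSOD replicates 1 and 3, and 0 to 3 on leaving out each library. Without the filter, with DESeq2 and on leaving out each library, the differences were 74, 6 and 0 to 0 from CN12, 48, 5 and 0 to 1 from CN10, and 21, 1 and 0 to 0 between ages (0 each as reported). Levels differing from CN12 (3048) numbered 1000 without mSOD replicates 1 and 3 and 1993 to 3806 on leaving out each library (1993 without CN3/4 wt replicate 3, 1997 without CN12 wt replicate 3), and those from CN10 (7255) 6774 to 6988. Tent5a was -0.25 and Gm12895 and Gm12896 -2.25 without mSOD replicates 1 and 3, and the latter pair -0.08 to 6.82 on leaving out each library (-0.08 without mSOD replicate 3). Fits that left out paired libraries, and the mean over ages, were chosen after seeing the data. The cause was not tested in any of these. A fit on project P11355 alone was not run for SC or P112, which it could not give.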
